A study of Mus musculus with 12 samples.

Results

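Genes of skeletal muscle were followed in mouse tissue labelled anterior hard palate, the front part of the bony palate. The 42 genes were taken by name from the 24391 genes of the count files, and all 42 were found. They comprise 5 myogenic transcription factors, 5 embryonic or early isoforms of contractile proteins, 11 fast isoforms, 7 slow isoforms, 7 scaffold and thin filament genes, 5 genes of calcium handling and caveolae, and 2 genes of energy and oxygen supply. RNA sequencing covered 4 groups of 3 samples, 12 in all. Wild type C57BL/6 embryos served as controls at embryonic day 14.5 (E14.5) and embryonic day 16.5 (E16.5). The mutants carried Shox2Cre and R26RFgf8 on the same strain and were taken at both ages. Cre from the Shox2 gene switches on an Fgf8 transgene in cells that have expressed Shox2. Nothing in the labels tells single embryos from pools, so p-values measure only the spread between these samples, which may be technical. Total counts were 76417891 to 125996587 per sample. The transgene separated the groups as labelled: Fgf8 was at 0.275, 0.249 and 0.423 CPM (each gene's count scaled to a common library size) in E14.5 controls and 10.5, 11.1 and 10.8 in the mutants, and at 0.430, 0.462 and 0.257 in E16.5 controls and 16.5, 14.0 and 17.8 in E16.5 mutants.

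Skeletal muscle forms when precursors marked by Pax7 switch on the myogenic factors Myf5, Myod1, Myog and Myf6, which bind E-box sequences and start the contractile genes. Fibres are built of sarcomeres, in which myosin heavy chains and light chains pull on actin filaments under the control of the calcium sensor troponin. Most of these proteins come in embryonic, slow and fast isoforms that replace each other as fibres mature. Several of the isoforms counted as early or slow in skeletal muscle are also made by heart muscle, and desmin and beta tropomyosin are also made by smooth muscle.

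The promoters of 5 members are shown because the results turn on them. Myl4, Tnni1 and Hrc were lower in the mutants at both ages, and Actc1 and Acta1 are the early and the late sarcomeric actin, whose ratio changed with age. Each window is RefSeq sequence of build GRCm38.p6, from 250 bases before to 50 bases after the listed start of the gene, and the count files use another build. Capitals mark matches on either strand to the E-box CANNTG, the MEF2 site, the CArG box or the TATA box TATAAA. Myl4 is at chr11:104550413-104550712 on the plus strand, Tnni1 at chr1:135799171-135799470 on the plus strand, Hrc at chr7:45335019-45335318 on the plus strand, Actc1 at chr2:114052826-114053125 on the minus strand and Acta1 at chr8:123894726-123895025 on the minus strand.
Myl4: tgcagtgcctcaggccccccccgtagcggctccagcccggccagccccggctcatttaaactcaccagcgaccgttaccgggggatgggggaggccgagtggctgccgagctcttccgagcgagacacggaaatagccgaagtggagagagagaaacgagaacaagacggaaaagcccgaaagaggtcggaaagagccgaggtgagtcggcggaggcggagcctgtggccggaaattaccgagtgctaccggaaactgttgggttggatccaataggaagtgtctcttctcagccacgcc
Tnni1: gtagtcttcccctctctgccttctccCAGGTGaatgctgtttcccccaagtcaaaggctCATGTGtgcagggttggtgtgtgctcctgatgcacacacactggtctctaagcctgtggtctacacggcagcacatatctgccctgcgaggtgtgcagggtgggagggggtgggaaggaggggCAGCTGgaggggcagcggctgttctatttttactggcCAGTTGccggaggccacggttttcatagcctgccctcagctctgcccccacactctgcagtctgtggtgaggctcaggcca
Hrc: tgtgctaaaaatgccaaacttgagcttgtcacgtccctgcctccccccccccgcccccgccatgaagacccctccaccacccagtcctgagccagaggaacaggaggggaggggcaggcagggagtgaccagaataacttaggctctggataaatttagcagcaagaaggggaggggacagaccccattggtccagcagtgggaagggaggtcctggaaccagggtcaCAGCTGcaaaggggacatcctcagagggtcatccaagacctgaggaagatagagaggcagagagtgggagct
Actc1: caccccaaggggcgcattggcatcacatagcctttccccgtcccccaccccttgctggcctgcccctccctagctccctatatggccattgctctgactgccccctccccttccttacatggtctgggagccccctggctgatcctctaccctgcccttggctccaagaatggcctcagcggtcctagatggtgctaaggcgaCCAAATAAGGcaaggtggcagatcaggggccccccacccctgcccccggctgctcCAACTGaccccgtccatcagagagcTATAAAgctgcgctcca
Acta1: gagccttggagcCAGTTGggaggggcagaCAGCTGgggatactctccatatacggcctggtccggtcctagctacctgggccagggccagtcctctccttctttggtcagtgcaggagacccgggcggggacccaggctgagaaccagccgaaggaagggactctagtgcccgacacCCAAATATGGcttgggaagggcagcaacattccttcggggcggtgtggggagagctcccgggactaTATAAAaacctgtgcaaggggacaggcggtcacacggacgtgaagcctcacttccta
The Myl4 window held none of these motifs, the Tnni1 window held 4 E-boxes and the Hrc window held 1. Actc1 and Acta1 each held 1 CArG box, the site of serum response factor, and 1 TATA box. RefSeq windows were found for 35 of the 42 members, the first listed window being used where a gene had several. The E-box was in 29 of the 35 (82.9%) and in 72.1% of all 27025 promoter windows. The CAGCTG form, which the E-box count includes, was in 14 (40.0%) and in 16.1% of all. MEF2 sites were in 5 members (14.3%, 3.3% of all), CArG boxes also in 5 (14.3%, 1.6% of all), and the TATA box in 10 (28.6%, 14.2% of all). These are matches of letters, not bound sites.

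Muscle RNA was a small part of these samples. Of the 42 members, 22 had a mean under 1 CPM over the 12 libraries, 18 lay between 1 and 10 CPM, and 2 were above 10 CPM. Those 2 were Tpm2, beta tropomyosin of the thin filament, at 118 CPM and Hrc, a histidine-rich calcium-binding protein of the sarcoplasmic reticulum, at 19.5 CPM. Per length, as CPM per kilobase of exon, Tpm2 made up 50.2% of the summed level of the members in E14.5 controls and Hrc 18.3%. Among myosin heavy chains the same per-length scale gave 0.572 for Myh3, the embryonic chain, 0.149 for Myh8, the perinatal chain, 0.0510 for Myh7, the slow chain, and 0.0365, 0.0363 and 0.0150 for the adult fast chains Myh4, Myh2 and Myh1. Myh4 and Myh2 did not differ beyond their spread. The defining markers of skeletal muscle were detected at low levels. Myf6, a late myogenic factor, had counts of 0, 2 and 0 in E14.5 controls and 0 in every E14.5 mutant library, and a count of 0 allows up to 3. Myosin heavy chains share near-identical stretches, as do Actc1 and Acta1, so the division of reads between them is uncertain.

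Libraries of 1 group differed widely in the contractile genes. In E14.5 controls Myh3 was at 0.897, 5.11 and 4.38 CPM in libraries 1, 2 and 3, and Actc1 at 0.632, 6.84 and 3.80 CPM. Library 1 was the lowest of the 3 for 27 of 41 members and library 2 the highest for 24. Library 1 also stood apart in other cell types, with summed levels in libraries 1, 2 and 3 of 164, 88.3 and 121 CPM for 10 neuron genes and 779, 1283 and 1097 CPM for 7 epithelial genes, none of them at 0. Their part was not tested. The coefficient of variation of Actc1 in this group was 82.7%, against 4.87% from counting alone. It was 65.0% for Myh3, 65.5% for Acta1 and 68.3% for Myog. Hrc did not follow these genes. Its coefficient of variation was 12.6%, and its highest value fell in library 1. The summed level of the embryonic and early isoforms ran from 4.84 to 18.5 CPM in this group and from 16.1 to 23.7 CPM in E16.5 controls. In bulk tissue, fewer muscle cells and less muscle RNA per cell cannot be told apart.

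**Figure D1:**
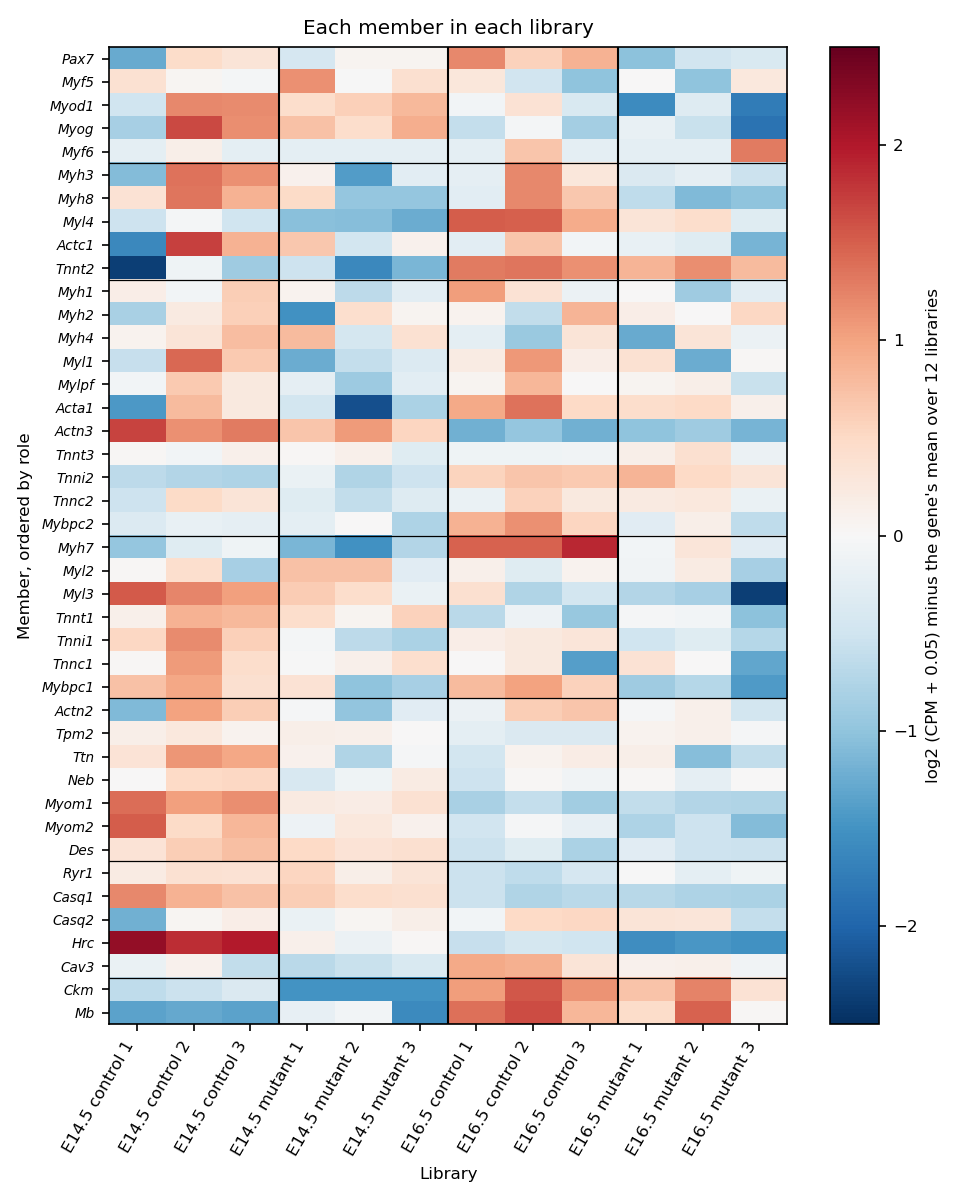
Level of each of the 42 members (vertical, by role) in each of the 12 libraries (horizontal), as log2 of CPM plus 0.05 minus the mean of that gene, on a colour scale cut at 2.5 either way. E14.5 control 1 is below the other E14.5 controls for Myh3, Actc1 and Tnnt2, but not for Hrc, Myom1 or Actn3.

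The first comparison set E14.5 mutants against E14.5 controls. A gene was called when the adjusted p of edgeR's quasi-likelihood test, over all genes tested, was under 0.05. Of the 42 members, 37 passed the filter on low counts, and Myf5, Myf6, Myh1, Myl2 and Ckm did not. Of the 37, 4 fell in the mutants (Hrc, Myom1, Tnni1 and Myl4) and 0 rose, while 7.52% of all 16650 genes tested were called, 4.57% lower and 2.95% higher. At an unadjusted p under 0.05 the count of higher members was also 0, and DESeq2 called 0 higher. The median log2 fold change of the tested members was -0.47, and that of all genes tested was 0.01. The fitted value lay below 0 for 33 members and above 0 for 4. Smooth muscle genes moved in the same comparison, 4 of 8 lower (Myh11, Smtn, Lmod1 and Actg2) and Tagln higher, with none at 0 in any library. Their summed level was 208 to 236 CPM in controls and 209 to 226 CPM in mutants, and their part was not tested.

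Hrc binds calcium in the store that triggers contraction. It was at 58.8, 46.0 and 50.4 CPM in E14.5 control libraries 1, 2 and 3 and at 13.9, 11.5 and 13.1 CPM in the mutants. The groups did not overlap, and controls were 4.03-fold higher (log2 fold change -2.01, SE 0.11, adjusted p = 3.89e-06). Osteoblast genes moved with it: all 8 of the list (Runx2, Sp7, Ibsp, Bglap, Alpl, Col1a1, Col1a2 and Dmp1) fell, with none at 0 in any library. Their summed level was 13423 to 16671 CPM in controls and 6072 to 7287 CPM in mutants. Their part in the change of Hrc was not tested. Among the other members, Myom1, Tnni1 and Myl4 also fell at this age. Myh3 and Actc1, both markers of muscle fibres, had fitted values below 0 (log2 fold changes -1.22 and -0.70) without a call.

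Myom1, myomesin of the sarcomere's M-band, went from 18.5, 14.1 and 15.6 CPM in controls to 8.18, 7.94 and 9.06 in mutants (log2 fold change -0.94, SE 0.11, adjusted p = 7.81e-04). No mutant library reached the lowest control. Tnni1, slow skeletal troponin I, went from 1.65, 2.66 and 1.76 to 1.10, 0.714 and 0.640 CPM (log2 fold change -1.31, SE 0.28, adjusted p = 0.0195). The groups were again apart, but the test was not passed once mutant library 2 was left out (adjusted p = 0.0776). Myl4, an essential light chain of embryonic skeletal muscle and of the atria, went from 2.15, 2.98 and 2.17 to 1.47, 1.46 and 1.29 CPM (log2 fold change -0.79, SE 0.19, adjusted p = 0.0345). It was no longer called without control library 2 (adjusted p = 0.0845) or 3 (0.0691) and without mutant library 1 (0.0991), 2 (0.0872) or 3 (0.0801). Nor was it called with all 12 samples in 1 fit (0.0649) or with replicates 1 and 2 alone (0.134).

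Other sarcomere genes had fitted values of similar size without a call. Myh3 was at 2.12, 0.714 and 1.64 CPM in the E14.5 mutants (log2 fold change -1.22, adjusted p = 0.215), and mutant libraries 1 and 3 lay within the control range. Without control library 1 it was called (adjusted p = 0.0186). Ttn, the giant spring protein titin, was at 1.53, 2.62 and 2.37 CPM in controls and 1.29, 0.689 and 1.17 in mutants (log2 fold change -1.05, adjusted p = 0.0507). Its groups did not overlap. DESeq2 called 11 members lower at E14.5, against 4 by edgeR. Those 11 added Myh8, Myl1, Mylpf, Actn3, Mybpc1, Ttn and Myom2 to the 4. Leaving out 1 library gave 3 to 7 members lower, with 7 without control library 1.

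The myogenic factors did not pass the test at E14.5. Pax7 was at 0.204, 0.794 and 0.717 CPM in controls and 0.408, 0.591 and 0.592 in mutants. Myod1, the master regulator of muscle fate, was at 0.184, 0.701 and 0.693 CPM in controls and 0.396, 0.443 and 0.521 in mutants, and Myog, which drives terminal differentiation, at 0.387, 2.40 and 1.69 CPM in controls and 1.24, 1.01 and 1.40 in mutants. For Pax7, Myod1 and Myog the mutant values fell inside the control range, with library 1 the lowest control. Myf5 had counts of 8, 7 and 4 in controls and 14, 4 and 7 in mutants, too few to be tested.

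**Figure D2:**
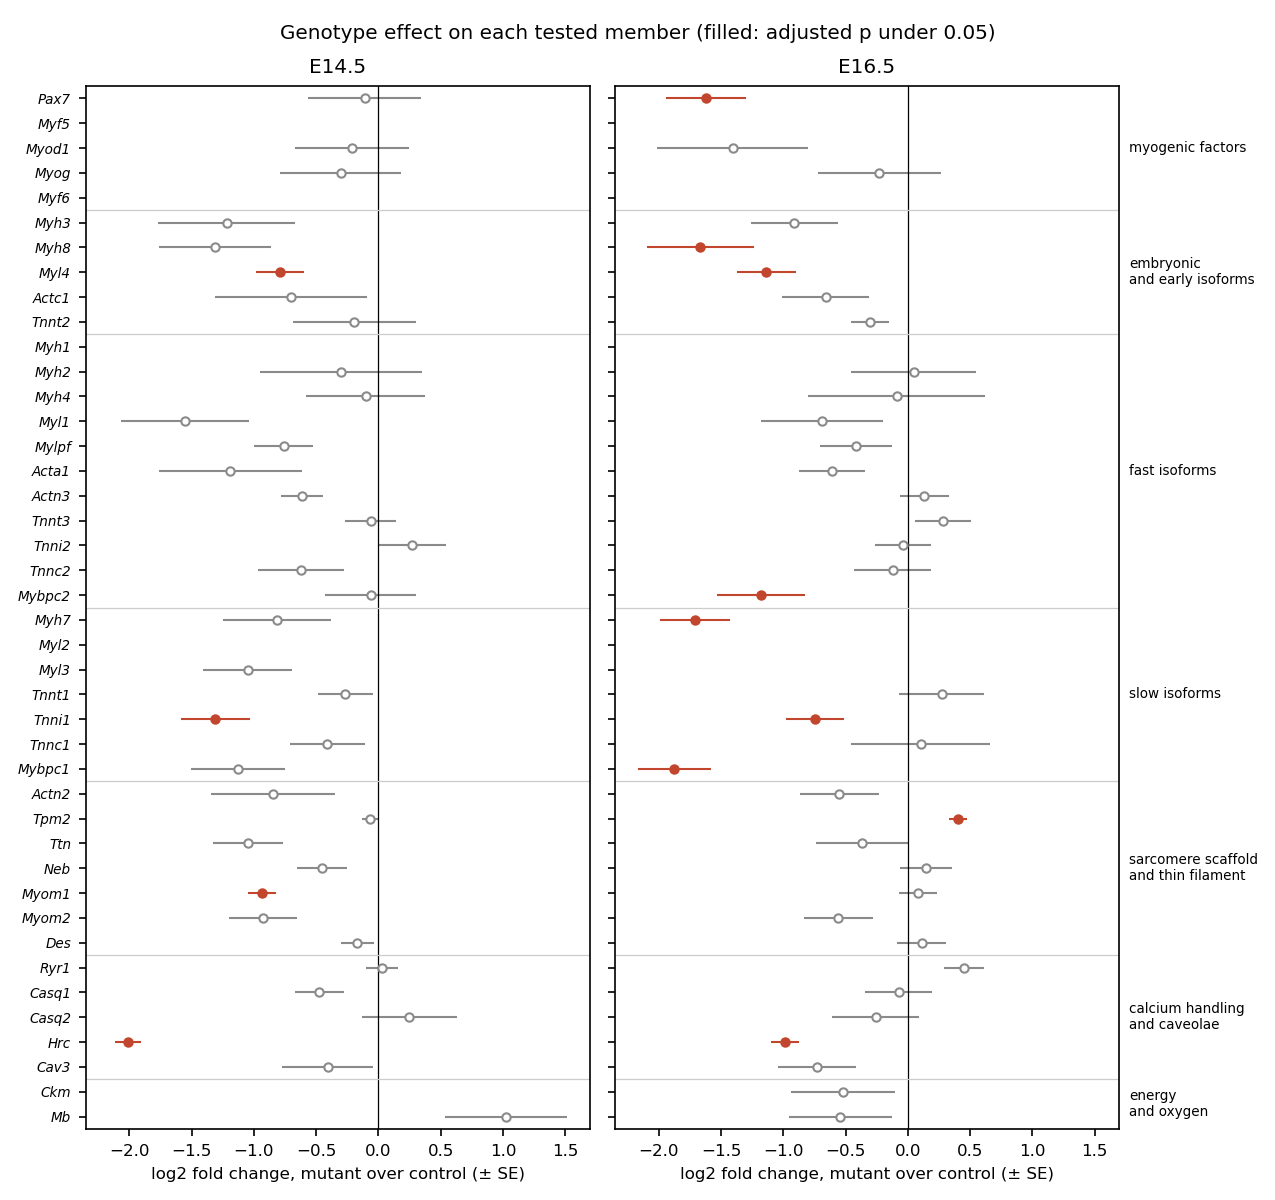
Log2 fold change of mutant over control with its SE for each member that was tested (vertical, by role) at E14.5 (left) and E16.5 (right); members without a point did not pass the filter on low counts. Filled red points have an adjusted p under 0.05: 4 lower at E14.5, and 8 lower and 1 higher at E16.5.

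The same comparison at E16.5 called 8 members lower and 1 higher of 37 tested, with Myf5, Myf6, Myh1, Myl2 and Myl3 below the filter. Of all 17169 genes tested, 27.9% were called, 15.7% lower and 12.2% higher. The share of tested members called was 24.3%, near that of all genes, so the number called is no result about the members. Pax7, the embryonic and perinatal isoforms Myl4 and Myh8, the slow isoforms Myh7, Tnni1 and Mybpc1, the fast isoform Mybpc2 and Hrc fell, and Tpm2 rose. The median log2 fold change of the members was -0.42, against 0.01 for all genes tested. By role, 3 of 5 tested slow isoforms fell, 2 of 5 embryonic and early isoforms, 1 of 10 fast isoforms, 1 of 3 myogenic factors and 1 of 5 calcium genes. Whether these shares differ was not tested.

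Pax7, the transcription factor of muscle precursors, was at 1.35, 0.856 and 1.06 CPM in E16.5 controls and 0.249, 0.387 and 0.417 in mutants. Each mutant was below each control, and controls were 3.10-fold higher (log2 fold change -1.62, SE 0.32, adjusted p = 0.00705). With replicates 1 and 2 alone Pax7 was not called (adjusted p = 0.0582). Myod1 was at 0.263, 0.372 and 0.201 CPM in controls and 0.0601, 0.213 and 0.0476 in mutants and Myog at 0.466, 0.698 and 0.380 CPM in controls and 0.635, 0.480 and 0.167 in mutants. Neither passed the test (adjusted p = 0.120 and 0.769). Myod1 had counts of 22, 33 and 18 in controls and 7, 16 and 4 in mutants. It passed the filter on low counts through the controls, where it is higher. The call it gained without mutant library 2 (adjusted p = 0.0200) is therefore not read as a fall. Myf5 had counts of 6, 2 and 0 in controls and 6, 0 and 6 in mutants, and Myf6 of 0, 4 and 0 in controls and 0, 0 and 8 in mutants.

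Myosin and its partners carried the largest falls. Mybpc1, slow myosin-binding protein C, went from 1.49, 1.73 and 1.28 to 0.429, 0.493 and 0.286 CPM (log2 fold change -1.87, SE 0.29, adjusted p = 0.00204). Myh7, the slow and cardiac beta myosin heavy chain, went from 1.33, 1.32 and 1.79 to 0.420, 0.560 and 0.357 CPM (log2 fold change -1.71, SE 0.28, adjusted p = 0.00270). Controls were 3.73-fold higher for Mybpc1 and 3.31-fold for Myh7, with no overlap of libraries. With replicates 1 and 2 alone the call of Myh7 was lost (adjusted p = 0.0515). Myh8 went from 0.489, 1.44 and 0.994 to 0.369, 0.253 and 0.274 CPM (log2 fold change -1.66, SE 0.43, adjusted p = 0.0214). The groups did not overlap. This call did not hold without control library 2 (adjusted p = 0.0933) or 3 (0.0536) and without mutant library 3 (0.0645).

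Myl4 went from 8.99, 8.85 and 5.99 to 3.90, 4.25 and 2.51 CPM (log2 fold change -1.14, SE 0.24, adjusted p = 0.00850). Each control was above each mutant. Tnni1 went from 1.29, 1.36 and 1.43 to 0.798, 0.920 and 0.679 CPM (log2 fold change -0.74, SE 0.23, adjusted p = 0.0437). With the replicate block its adjusted p was 0.0507, and it was also lost without control library 1 (0.102), 2 (0.118) or 3 (0.121) and mutant library 1 (0.102) or 3 (0.137). Mybpc2, fast myosin-binding protein C, went from 0.728, 0.890 and 0.570 to 0.300, 0.427 and 0.226 CPM (log2 fold change -1.18, SE 0.35, adjusted p = 0.0368). This call was lost without control library 1 (0.104), 2 (0.142) or 3 (0.0522) and mutant library 1 (0.101) or 3 (0.114).

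Myh7 and Myl4 are also genes of the heart. In the list of 8 heart muscle genes, Myh6, the alpha cardiac myosin, fell at E16.5 from 1.65, 1.64 and 1.70 to 0.746, 0.720 and 0.762 CPM (log2 fold change -1.14, SE 0.21, adjusted p = 0.00484), and Ryr2, the cardiac calcium release channel, fell as well (log2 fold change -0.30). These were 2 of the 5 tested, and 0 rose, beside 15.7% lower and 12.2% higher of all genes tested. The summed level of the list was 15.1 to 17.2 CPM in controls and 11.8 to 12.3 in mutants. Ryr2 made up most of it, with a mean of 10.4 CPM in controls and 8.33 in mutants. Nppa and Mybpc3 had higher means in the mutants, from few counts. Nppa had 4, 6 and 1 counts in E16.5 controls and 14, 11 and 7 in mutants, and Mybpc3 8, 12 and 2 and then 10, 10 and 12. Within the list, Nkx2-5 and Nppb were at 0 in some libraries of both ages, and Nppb was at 0, 2 and 2 counts in E16.5 controls. Myl7, the atrial light chain, and Tnni3, cardiac troponin I, were detected in every library and not called. At E16.5 Myl7 was at 1.52, 1.71 and 1.04 CPM in controls and 0.884, 0.706 and 0.881 in mutants. Tnni3 was at 3.35, 3.15 and 1.93 CPM in those controls and 2.40, 1.67 and 1.48 in those mutants. Reads of Myh6 and Myh7 can be hard to separate, and the part of heart-like expression in the fall of Myh7 and Myl4 was not tested.

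Hrc went from 8.54, 9.43 and 8.96 to 4.32, 4.61 and 4.45 CPM at E16.5, 2.01-fold higher in controls (log2 fold change -0.99, SE 0.11, adjusted p = 3.66e-04). Its libraries lay close together within each group. All 8 osteoblast genes fell here too, with a sum of 5237 to 6309 CPM in controls and 923 to 1480 CPM in mutants. Tpm2 rose from 99.5, 90.7 and 91.8 to 125, 127 and 115 CPM, 1.30-fold (log2 fold change 0.41, SE 0.07, adjusted p = 0.00390). Among 8 smooth muscle genes, Acta2, Tagln, Cnn1 and Actg2 rose with it and Myh11 fell, and the summed level was 111 to 131 CPM in controls and 142 to 151 in mutants. The part of smooth muscle in the rise of Tpm2 was not tested.

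E16.5 mutant libraries 1 and 3 stood apart in neuron genes, with a summed level of 284 and 167 CPM over 10 genes, against 38.8 in library 2 and 30.2 to 34.3 in the controls. No gene of that list was at 0 in any library. With mutant library 2 alone, 4 members were called lower (Hrc, Mybpc1, Myh7 and Myl4) and Tpm2 higher. Pax7 (adjusted p = 0.0572), Myh8 (0.0824), Mybpc2 (0.351) and Tnni1 (0.326) were then not called, in a fit that takes the lone library to vary like the controls.

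**Figure D3:**
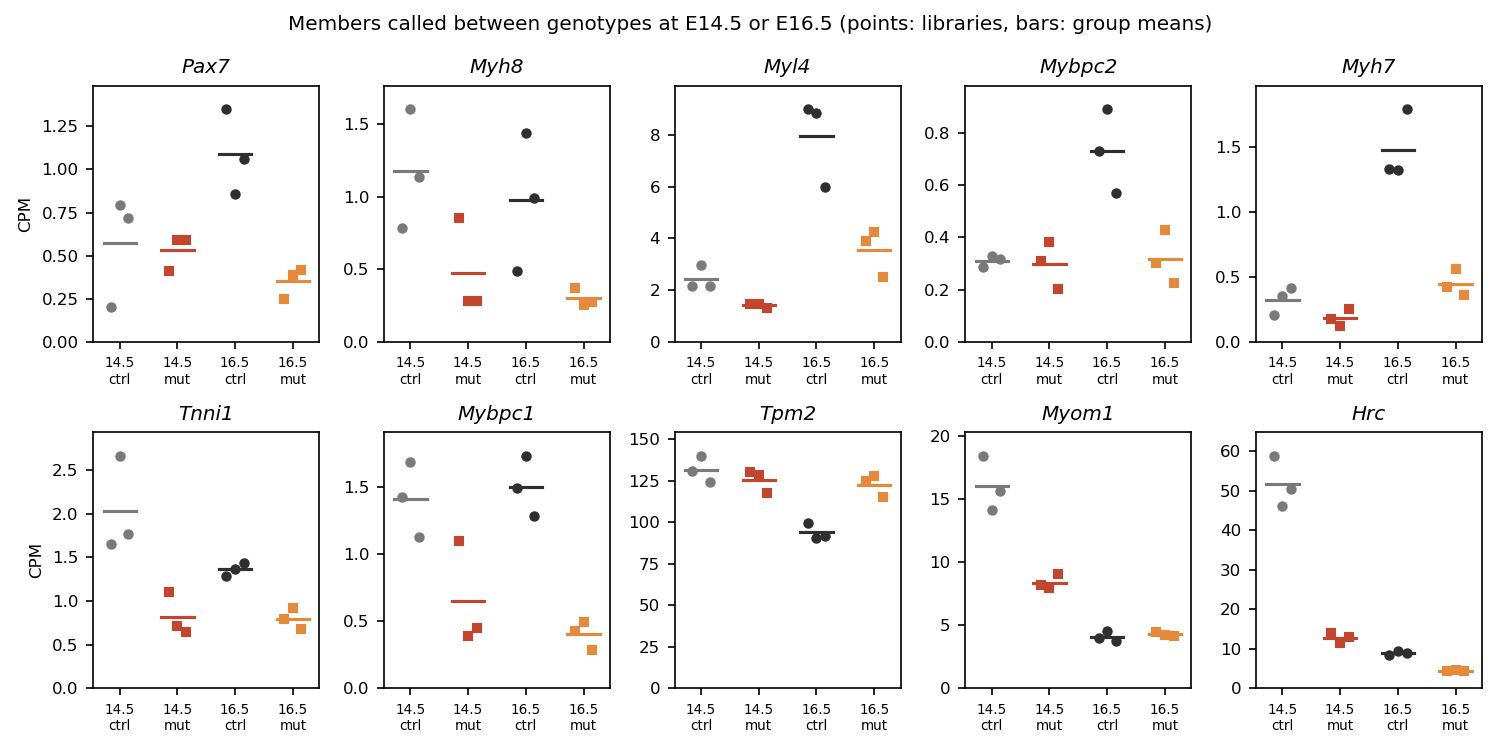
CPM (vertical, from 0) of the 10 members called between genotypes at either age, in the 3 libraries of each group (points) with the group mean (bar). Hrc runs from 58.8 CPM in an E14.5 control to 4.32 in an E16.5 mutant, while Tpm2 is lowest in the E16.5 controls.

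The genotype effect itself was compared between the ages in 1 fit of all 12 samples. It differed for 4 of 38 members, all with a higher value at E16.5, where the effect of 22.3% of the 17550 genes tested differed, 9.97% higher and 12.4% lower. No member had a lower effect by edgeR or by DESeq2, while 3 did at an unadjusted p under 0.05. For Hrc the log2 effect was 1.002 higher at E16.5 than at E14.5 (SE 0.14, adjusted p = 3.54e-04), the fall being smaller at the later age. Myom1 fell at E14.5 and was at 3.96, 4.58 and 3.77 CPM in E16.5 controls and 4.50, 4.20 and 4.12 in mutants (difference of effects 0.996, adjusted p = 0.00112). For Tpm2 the E14.5 controls lay at 130.5, 139.9 and 124 CPM and the E14.5 mutants at 129.9, 128 and 117 (difference of effects 0.45, adjusted p = 0.00463). Ckm, the muscle creatine kinase, had 4, 6 and 5 counts in E14.5 controls and none in any E14.5 mutant, and had 20, 32 and 23 in E16.5 controls and 21, 21 and 11 in E16.5 mutants (adjusted p = 0.0264). Ckm entered this fit only through the E16.5 groups, where it is high. With so few counts no fold is given, and the call was lost without E14.5 control library 3 (adjusted p = 0.0540) or E14.5 mutant library 1 (0.0572), 2 (0.0522) or 3 (0.0538). The fall of Pax7 at E16.5 was not shown to differ from its value at E14.5 (adjusted p = 0.0956).

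In the normal palate members changed with age in both directions. From E14.5 to E16.5 in controls, 8 of 38 tested members rose and 13 fell, where 66.4% of the 17550 genes tested were called, 34.3% higher and 32.1% lower. The share of tested members called was 55.3%, no higher than that of all genes, so the number called is no result about the members. Ckm at E14.5 and Myl3 at E16.5 were below the filter of that age, and they are among the tested members only through the age at which they were high. Both are counted as called with age (Ckm higher, Myl3 lower), and for them only the levels are given. Ckm aside, the largest fitted changes were in Mb, Actn3, Hrc, Myh7 and Tnnt2. Mb, myoglobin, rose from 0.163, 0.171 and 0.164 to 1.35, 1.63 and 0.905 CPM (log2 fold change 2.95, SE 0.50, adjusted p = 1.75e-04), and the counts of Ckm are those given above. Myh7 rose from 0.204, 0.350 and 0.411 to the E16.5 level given above (log2 fold change 2.20, SE 0.34, adjusted p = 8.16e-05). Tnnt2, the troponin T of embryonic and cardiac muscle, rose from 0.377, 1.97 and 1.13 to 5.29, 5.46 and 4.75 CPM (log2 fold change 2.14, SE 0.42, adjusted p = 5.92e-04). All E16.5 controls exceeded all E14.5 controls for Mb, Myh7 and Tnnt2. Mb exons overlap an antisense transcript and Apol6 in the annotation, Ckm exons an antisense transcript, and Myh7 exons 3 antisense transcripts, Mhrt over 7.3%, Gm31251 over 8.3% and Gm29015 over 2.2% of the exon bases, so reads of either strand may be mixed.

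Hrc fell with age by 5.77-fold in controls (log2 fold change -2.53, SE 0.10, adjusted p = 2.53e-10). Actn3, the fast-fibre alpha actinin of the Z-disc, fell from 12.4, 8.54 and 9.48 to 1.65, 1.93 and 1.63 CPM (log2 fold change -2.55, SE 0.18, adjusted p = 4.91e-08). In the mutants it fell from 6.26, 8.05 and 5.57 to 1.87, 2.05 and 1.69 CPM (log2 fold change -1.82, SE 0.18, adjusted p = 2.35e-06). Of all genes tested 32.1% fell and 34.3% rose with age in controls, and whether the shares by role or list differ from these was not tested. Among scaffold genes 6 of 7 fell in controls (Tpm2, Ttn, Neb, Myom1, Myom2 and Des, desmin of the intermediate filaments). Log2 fold changes were -1.26 for Myom2, -1.12 for Des and -0.55 for Neb, nebulin of the thin filament. The libraries of the 2 ages overlapped for Neb. Actn2 did not pass. Neb was not called without E14.5 control library 2 (adjusted p = 0.111) or 3 (0.115) or E16.5 control library 1 (0.147). Ttn was not called without E14.5 control library 2 (0.123) or 3 (0.0886) or E16.5 control library 1 (0.133) or 2 (0.0638). Calcium handling genes fell in 3 of 5 cases, with Casq1, fast calsequestrin, at -1.68 and Ryr1, the skeletal calcium release channel, at -0.86, and Cav3, muscle caveolin, rose (1.02). Without E14.5 control library 3 the adjusted p of Cav3 was 0.0501. Over the same interval 6 of 8 smooth muscle genes and 7 of 8 osteoblast genes fell, and the smooth muscle sum was 208 to 236 CPM at E14.5 and 111 to 131 CPM at E16.5. Their part was not tested.

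In the mutants 7 of 38 members rose with age and 10 fell, where 51.6% of all genes tested were called, 27.2% higher and 24.4% lower. The share of tested members called was 44.7%, again no higher than that of all genes. Of the members called with age in mutants, 6 also rose in controls (Myl4, Tnnt2, Tnni2, Myh7, Ckm and Mb) and 9 also fell in controls (Myog, Actn3, Myl3, Myom1, Myom2, Des, Ryr1, Casq1 and Hrc). Ckm and Myl3 are counted here too, although they were tested only through the age at which they were high. Myog went from 1.49 ± 1.02 to 0.515 ± 0.165 CPM in controls (log2 fold change -1.54, SE 0.57, adjusted p = 0.0285) and from 1.22 ± 0.195 to 0.427 ± 0.239 in mutants (log2 fold change -1.49, SE 0.57, adjusted p = 0.0448; edgeR, mean ± SD, n = 3). Without 1 library Myog was not called in controls (adjusted p = 0.161 without E14.5 library 2, 0.0679 without E14.5 library 3, 0.0821 without E16.5 library 1 and 0.0874 without E16.5 library 3). In mutants the same held without E14.5 library 1 (0.0963), 2 (0.0694) or 3 (0.117) and E16.5 library 2 (0.0835) or 3 (0.155). Calls in mutants were also lost for Mb without E14.5 library 3 (0.0863) or E16.5 library 2 (0.137), for Ryr1 without E14.5 library 1 (0.0799) or E16.5 library 2 (0.0510), and for Myom2 without E14.5 library 2 (0.0708) or E16.5 library 3 (0.0802). Myl3, a slow light chain, was at 0.683, 0.545 and 0.470 CPM in E14.5 controls, 0.347, 0.295 and 0.178 in E14.5 mutants, 0.287, 0.101 and 0.134 in E16.5 controls and 0.103, 0.0933 and 0 in E16.5 mutants. Myod1 was called lower in the mutants (log2 fold change -2.13, SE 0.61, adjusted p = 0.0109), and its value in controls was -0.92 (adjusted p = 0.158). The call in mutants was lost without E16.5 library 1 (0.0510) and with replicates 1 and 2 alone (0.132). The E16.5 mutants had counts of 7, 16 and 4, too few to pass the filter on low counts by themselves. Myod1 was thus tested through the groups where it was higher. The difference between the changes in controls and mutants is the difference of genotype effects, which was not called for Myod1 (adjusted p = 0.330).

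Embryonic and later isoforms were set against each other as the log2 ratio of their counts in each library, which needs no scaling between libraries. Because genes differ in length, a ratio is read only for its change. Differences with age were tested by permuting the ages within each genotype, and differences with genotype by permuting genotypes within each age. There were 20 tests of 10 ratios, two-sided, and the smallest p the design allows is 0.005. With age 6 of the 10 ratios differed, and with genotype 2.

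The actin ratio moved towards the late isoform. The ratio of Actc1, the early and cardiac actin, to Acta1, the adult skeletal actin, was 0.78, 1.84 and 1.56 in E14.5 control libraries 1, 2 and 3 and -0.31, 0.22 and 0.33 at E16.5. In mutants it was 2.09, 2.86 and 1.86 at E14.5 and 0.28, 0.10 and -0.42 at E16.5. Every E14.5 library was above every E16.5 library, and the mean difference was -1.80 (exact permutation p = 0.005, adjusted p = 0.0143). Acta1 itself measured 0.367, 1.91 and 1.28 CPM in controls at E14.5 and 2.12, 2.85 and 1.55 at E16.5, and in mutants 0.767, 0.197 and 0.604 at E14.5 and 1.48, 1.55 and 1.18 at E16.5. Actc1 was at 1.71, 3.32 and 1.95 CPM in E16.5 controls, 3.29, 1.46 and 2.20 in E14.5 mutants and 1.80, 1.65 and 0.881 in E16.5 mutants.

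Troponin I also moved towards the fast isoform. The ratio of Tnni1 to Tnni2, fast troponin I, was 1.40, 2.16 and 1.60 in E14.5 controls, 0.30, 0.30 and -0.10 in E14.5 mutants, -0.23, -0.30 and -0.19 in E16.5 controls and -1.22, -0.66 and -0.92 in E16.5 mutants. It differed with age by -1.53 (exact permutation p = 0.005, adjusted p = 0.0143) and with genotype by -1.12 (exact permutation p = 0.005, adjusted p = 0.0143). Mutants lay below controls at both ages. Tnni2 was at 0.596 ± 0.0235 CPM in E14.5 controls, 0.719 ± 0.159 in E14.5 mutants, 1.61 ± 0.0833 in E16.5 controls and 1.54 ± 0.301 in E16.5 mutants (mean ± SD, n = 3).

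Troponin C, the calcium sensor, gave a ratio of Tnnc1, slow and cardiac, to Tnnc2, fast, of 0.88, 0.87 and 0.39 in E14.5 controls and 0.47, -0.09 and -1.52 in E16.5 controls. The values in mutants were 0.60, 1.08 and 1.06 at E14.5 and 0.41, 0.00 and -0.98 at E16.5. Ages overlapped, and the difference of -1.10 (exact permutation p = 0.01, adjusted p = 0.0250) had an adjusted p of 0.05 without E14.5 control library 1 or 2 or E14.5 mutant library 2 or 3. The annotation places 84.6% of the exon bases of Tnnc2 over Ube2c, a cell cycle gene on the opposite strand, so Tnnc2 counts are uncertain.

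Other pairs moved the opposite way, towards the isoform counted as early. The ratio of Tnnt2 to Tnnt3, fast troponin T, was -1.84, 0.62 and -0.38 in E14.5 controls and 2.09, 2.14 and 1.91 at E16.5, and in mutants 0.09, -1.14 and -0.20 at E14.5 and 1.37, 1.42 and 1.61 at E16.5. It rose by 2.23 with age (exact permutation p = 0.005, adjusted p = 0.0143), with no overlap between ages. In controls Tnnt3 measured 1.37 ± 0.0961 CPM at E14.5 and 1.25 ± 0.0126 CPM at E16.5 (mean ± SD, n = 3). The ratio of Casq2, slow and cardiac calsequestrin, to Casq1 was -1.84 ± 1.08 in E14.5 controls and 0.52 ± 0.45 in E16.5 controls, and in mutants -0.99 ± 0.30 at E14.5 and 0.29 ± 0.53 at E16.5 (mean ± SD, n = 3). It rose by 1.82 (exact permutation p = 0.005, adjusted p = 0.0143), while Casq1 fell and Casq2 went from 0.265, 0.701 and 0.764 to 0.645, 0.969 and 0.983 CPM in controls with no call.

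Over the same interval 3 of 5 tested heart genes rose in controls, beside 34.3% higher of all genes tested. Others of the list changed little, with means at E14.5 and E16.5 of 10.1 and 10.4 CPM for Ryr2, 0.0922 and 0.0843 for Mybpc3 and 0.0459 and 0.0422 for Nppa. Myh6 rose from 0.367, 0.428 and 0.247 to 1.65, 1.64 and 1.70 CPM (log2 fold change 2.24, adjusted p = 6.11e-06), Myl7, the atrial light chain, from 0.235, 0.163 and 0.117 to 1.52, 1.71 and 1.04 CPM and Tnni3, cardiac troponin I, from 1.41, 1.10 and 1.17 to 3.35, 3.15 and 1.93 CPM. Their part in the ratios of Tnnt2, Myl4, Casq2 and Myh7 was not tested.

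Myosin heavy chain ratios differed for the slow chain. Myh7 over the sum of Myh1, Myh2 and Myh4 was -0.71, -0.53 and -0.86 in E14.5 controls, -1.21, -1.67 and -0.91 in E14.5 mutants, 1.33, 2.26 and 1.43 in E16.5 controls and 0.33, 0.43 and -0.44 in E16.5 mutants. It rose with age by 1.87 (exact permutation p = 0.005, adjusted p = 0.0143), and differed with genotype by -1.07, mutants being lower (exact permutation p = 0.005, adjusted p = 0.0143). The adult fast chains were near the limit of detection, with Myh1 at 8, 8 and 11 counts in E14.5 controls and 16, 9 and 5 in E16.5 controls. Myh2 was at 0.0918, 0.241 and 0.329 CPM in controls of E14.5 and 0.215, 0.113 and 0.402 in those of E16.5. Myh4 was at 0.163, 0.202 and 0.294 and then 0.119, 0.0563 and 0.201 CPM.

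No ratio of embryonic myosin to perinatal or adult myosin passed the test with age. The mean age difference was 0.46 for Myh3 over Myh8 (exact permutation p = 0.2, adjusted p = 0.308), and for Myh3 over the adult fast chains, whose sign turned when any 1 of 3 libraries was left out, it was 0.17 (exact permutation p = 0.75, adjusted p = 0.789). Myh8 over the adult fast chains had a genotype difference of -1.32 without a call (exact permutation p = 0.03, adjusted p = 0.0667). Myl4 over Myl1, the fast essential light chain, had an age difference of 1.25, also without a call (exact permutation p = 0.04, adjusted p = 0.0800). Myh3 was at 1.68, 4.60 and 2.39 CPM in E16.5 controls and 1.53, 1.67 and 1.35 in mutants, and Myl1 at 0.597, 1.14 and 0.581 in those controls and 0.678, 0.187 and 0.524 in those mutants. Both had wide spreads in controls.

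**Figure D4:**
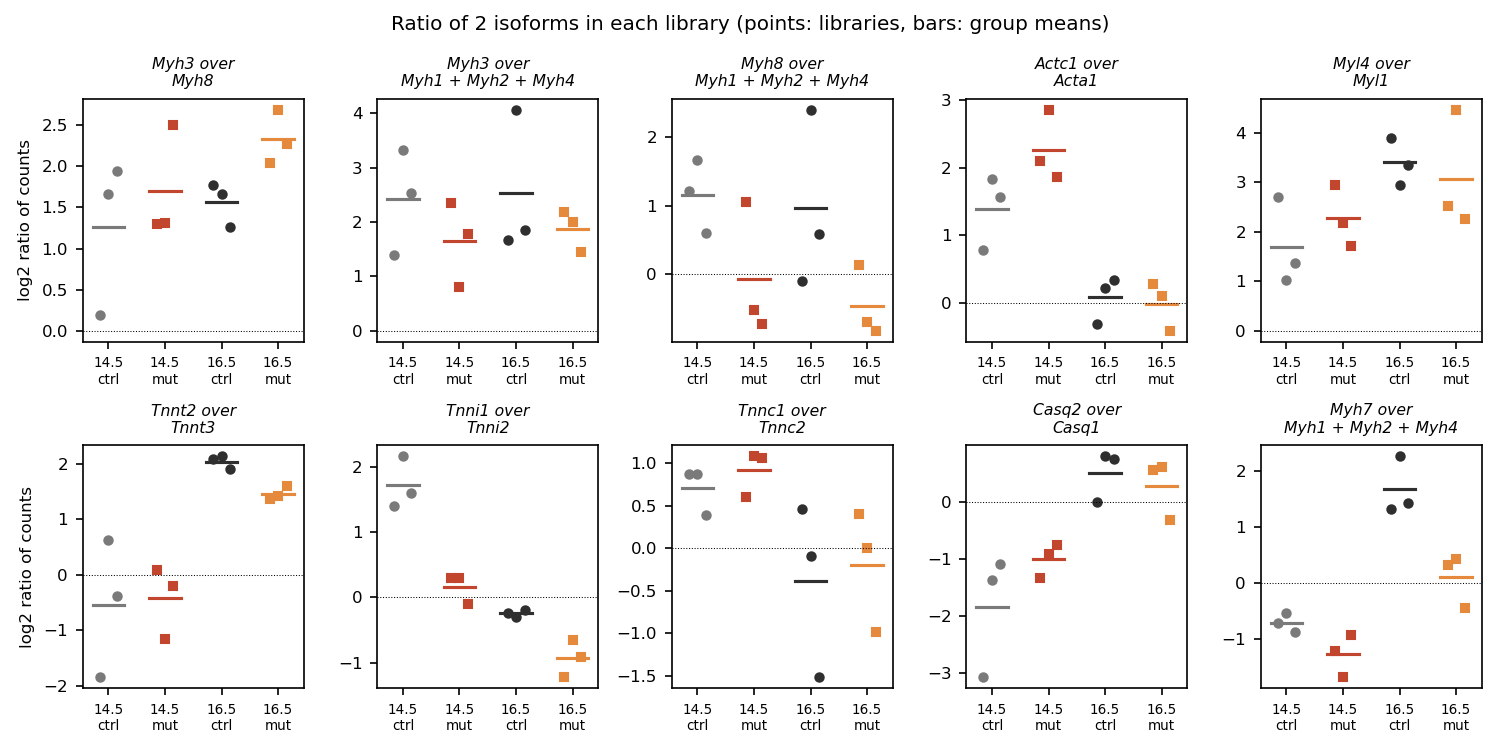
Log2 ratio of the counts of an early or slow isoform to a later or fast one (vertical) in the 3 libraries of each group (points) with the group mean (bar), for 10 ratios. Actc1 over Acta1 and Tnni1 over Tnni2 are lower at E16.5, while Tnnt2 over Tnnt3, Casq2 over Casq1 and Myh7 over the adult fast chains are higher.

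Other genes of the muscle programme, 62 in a list that holds no member, were tested in the same fits. At E14.5, 10 of 50 tested fell and 0 rose, beside 4.57% lower and 2.95% higher of all genes tested, with a median log2 fold change of -0.31. The 6 largest falls were in Sgca, alpha sarcoglycan of the membrane complex (log2 fold change -2.01), Fabp3, a fatty acid carrier (-1.38), Pgam2, muscle phosphoglycerate mutase (-1.05), Pygm, muscle glycogen phosphorylase (-1.03), Jph2, a junctophilin (-0.83), and Eno3, muscle enolase (-0.71). Fabp3 fell from 19.7, 15.6 and 12.8 to 7.08, 6.25 and 5.13 CPM, with no overlap. At E16.5, 8 of 50 fell and 5 rose, with a median of -0.07. These counts are close to the shares of all genes tested, 15.7% lower and 12.2% higher, and are no result about the list. The 6 largest fitted changes were in Myot, Smyd1, Ampd1, Cacna1s, Lmod2 and Trim63. Smyd1, a methyltransferase needed for sarcomere assembly, was at -1.54 and Ampd1, muscle AMP deaminase, at -1.49. Cacna1s, the voltage sensor of excitation, was at -1.16, Lmod2, an actin nucleator, at -1.09 and Trim63, a ubiquitin ligase of muscle, at 0.85. Lmod2 fell from 5.25, 5.41 and 5.89 to 2.02, 3.21 and 2.42 CPM. Myot, myotilin of the Z-disc, had counts of 2, 6 and 4 in controls and 28, 30 and 18 in mutants. It passed the filter on low counts only through the mutants, where it is high. It is counted among the 5 that rose, but only its counts are given. Many of these genes, among them Eno3, Jph2 and Fabp3, are also expressed outside skeletal muscle.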

How the data were processed

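Per the submitters' processing notes, reads were aligned to mm9 with HISAT2 and counted per gene with featureCounts; versions, annotation and strand setting are not given in the sources used here. The authors deposited raw counts per gene and sample, which were used as deposited. Tables of the whole series, which hold 24 per-sample columns, were left aside. Counts were tested with edgeR 4.0.16 in R 4.3.3 (TMM scaling, filterByExpr, quasi-likelihood test, Benjamini-Hochberg adjustment over all genes tested, threshold 0.05). Genotype was compared on the 6 samples of an age, and the other contrasts in 1 fit of 12 samples with 4 group means. The fit was tested on simulated data. CPM are scaled by TMM factors. Per-length levels use exon lengths of GENCODE M21, which is not the authors' annotation. Isoform ratios had 0.5 counts added to each side and exact permutation tests (Benjamini-Hochberg over 20). The named genes are the members called between genotypes, both isoforms of each ratio, the myogenic factors, the 6 largest changes with age in controls, and up to 6 called genes of the wider muscle list; Ttn, the scaffold and calcium genes and the cell type markers were named beside them after their values were seen. Members and lists were chosen with earlier results of these data known. The labels do not say that equal replicate numbers pair samples, and the main tests took them as unpaired. Deviations from the group means of same-numbered controls and mutants correlated at 0.105, 0.161 and 0.222 at E16.5 over 17550 genes. At E14.5 they gave 0.0193, 0.0445 and 0.160. Over 13463 genes of higher level they gave 0.196, 0.241 and 0.695 at E16.5 and 0.0783, 0.127 and 0.559 at E14.5. Replicate 3 was the highest each time, and what the replicate numbers stand for was not tested. Detection limits cover counting error only; the labels mention no molecular identifiers. Alternatives were DESeq2 1.42.0, its size factors, other filters, other sample sets, the replicate block and each library left out.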

Additional observations from a re-analysis of the deposited data

Results flagged for a closer look

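The genotype effect differed between the 2 ages for 4 members, by an edgeR test of the difference itself. Of the 38 members tested 10.5% differed, all higher, beside 9.97% higher and 12.4% lower of all 17550 genes tested. The number of members is therefore no result about them. The log2 difference, E16.5 effect minus E14.5 effect, was 1.002 for Hrc, 0.996 for Myom1 and 0.45 for Tpm2. For Ckm the fitted difference was 4.64, which is set by the prior count because all 3 E14.5 mutant libraries had 0 counts, and it is no measure of size. Ckm was below the filter on low counts at E14.5.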

How the results depend on the processing

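Counts are of members called, and each alternative changed 1 choice. At E14.5, 4 members were lower with edgeR, 11 with DESeq2, 7 with no filter on low counts, 2 with a filter of 5 CPM in 3 samples, 2 with replicates 1 and 2 alone, and 3 to 7 with 1 library left out. At E16.5, 8 were lower and 1 higher. The lower count was 2 with the 5 CPM filter, 3 with replicates 1 and 2 alone, 4 with mutant library 2 alone and 5 to 10 with 1 library left out. The higher count was 2 with DESeq2 and with all 12 samples in 1 fit, and 1 to 2 with 1 library left out. For the difference between ages, 4 higher and 0 lower became 3 to 5 and 0 to 1. With age in controls, 8 higher and 13 lower became 1 and 6 with the 5 CPM filter, which tests fewer members, and 7 to 10 and 10 to 15 with 1 library left out. In mutants, 7 higher and 10 lower became 1 and 5 with that filter, 5 lower with replicates 1 and 2 alone, 6 lower with mutant library 2 alone, and 5 to 7 and 7 to 9 with 1 library left out. Isoform ratios that differed numbered 6 by age (5 to 7) and 2 by genotype (2 to 3). With the replicate block, 8 members were lower at E14.5, 7 lower at E16.5, and the difference between ages gave 5 higher and 1 lower. Over all genes tested, every same-numbered pair correlated over 0.1 between the genotypes at E16.5, where the block ended the call of Tnni1. Between the control groups of the 2 ages this held only for genes of higher level (0.149, 0.236 and 0.560). With age, the block added a call of Pax7 in controls (adjusted p = 0.0382) and ended that of Acta1 in mutants (0.0523). Among single genes and ratios, 624 of 720 values with 1 library left out kept their call and direction, 61 lost and 25 gained a call. Of 537 values under other settings, 476 kept both, 34 lost and 26 gained a call. Signs turned only for results with no call. With 1 library left out, the log2 change of Actc1 with age in controls ran from -1.20 to 0.0795. The age difference of Myh3 over adult fast chains ran from -0.216 to 0.394. The genotype difference ran from -0.222 to 0.375 for Myl4 over Myl1, from -0.559 to 0.0571 for Tnnt2 over Tnnt3, from -0.0884 to 0.408 for Tnnc1 over Tnnc2 and from -0.000718 to 0.497 for Casq2 over Casq1. Mb at E16.5 became 0.17 with mutant library 2 alone. Except for the filter, the cause of these changes was not tested. Of the 42 members, 22 averaged under 1 CPM.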
